A study of Mus musculus with 2 samples.

Results

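Messenger RNAs of 9 apolipoproteins and of *Mttp*, which loads lipid onto apolipoprotein B, were followed across the cell types of fatty, inflamed mouse liver. The 10 members (*Apoa1*, *Apoa2*, *Apoa4*, *Apoa5*, *Apob*, *Apoc1*, *Apoc3*, *Apoe*, *Apoh* and *Mttp*) were taken by symbol from the 32285 genes of the count matrices, and each was found there. Male C57BL6/J mice received a MASH diet from 10 to 12 weeks of age for 5 months, in which fat supplied 40% and fructose 20% of the calories and cholesterol made up 2%. One snRNA-seq library came from *Themis* flox/flox mice (Flox) and 1 from *Themis* Alb-Cre mice (HKO), in which Cre under the albumin promoter was to delete *Themis* in hepatocytes. Both groups carried the floxed allele and received the diet, and no chow-fed library was analysed here. Frozen liver of several mice was pooled within a genotype before nuclei were sorted, so animals of a library could not be separated and the genotype cannot be told apart from the library.

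Apolipoproteins are the protein parts of lipoprotein particles, which carry cholesterol and triglyceride in plasma. APOB is the structural protein of very-low-density lipoprotein, and MTTP adds lipid to it as it is made in the hepatocyte. APOA1 and APOA2 are the main proteins of high-density lipoprotein. APOE directs uptake of remnant particles by the liver and is also made by macrophages. APOA5 favours and APOC3 restrains the clearance of triglyceride by lipoprotein lipase.

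The library labelled Flox held 58171337 UMIs over 9363 barcodes and that labelled HKO 40475938 UMIs over 10748 barcodes, and 27 barcode sequences occurred in both. After doublets were removed 8659 and 9801 nuclei remained, at median depths of 5959 and 1971 UMIs. In all pairs of values that follow, the library labelled Flox stands first. Nuclei were named from fixed marker genes, none of them a member, which gave 5782 and 4360 hepatocytes, 578 and 1274 macrophages, 781 and 1215 endothelial nuclei, 814 and 1134 stellate cells (HSCs), 134 and 525 cholangiocytes, 121 and 164 T cells, and 55 and 64 B cells. *Themis* itself stood at 163.6 and 249.1 counts per 1000000 UMIs (CPM) in hepatocytes, higher and not lower in the library labelled HKO. The 3′ tags may lie outside the deleted part of the gene, whose position is not given in the sources used here, so this count checks no label. Each value below is a sum over the nuclei of 1 library with no replicate, hence no test was possible between libraries, zones or cell types. Intervals are exact 95% intervals and cover counting error only. A lower level in a type may reflect fewer contributing nuclei or less RNA per nucleus, which cannot be told apart.

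Of the members, 4 sit in 1 gene cluster on mouse chromosome 9 (GRCm38): *Apoa1* at chr9:46228580-46230466 on the plus strand, *Apoc3* at chr9:46232933-46235636 on the minus strand, *Apoa4* at chr9:46240696-46243459 and *Apoa5* at chr9:46268633-46271919, both on the plus strand. *Apoc1* at chr7:19689481-19692660 and *Apoe* at chr7:19696109-19699188 lie side by side on the minus strand of chromosome 7. *Apoa2* (chr1:171225054-171226379), *Apob* (chr12:7977648-8016835), *Apoh* (chr11:108343354-108414396) and *Mttp* (chr3:138089854-138144968) lie apart from other members. RefSeq promoter windows of the GRCm38.p6 build, from 250 bases before to 50 bases after a start site, were found for 8 of the 10 members. The windows of the 3 chromosome 9 genes are shown because these neighbours differed in their zone and library patterns, and that of *Apoe* because its cell type pattern stood apart. Capitals mark a match on either strand to 1 of 4 motifs. The core promoter box was searched as TATAAA and an element that binds receptors of the HNF4 kind as CAAAGTNCA. The half-site of nuclear receptors was searched as AGGTCA, and the E-box of helix-loop-helix factors as CACGTG. No 2 matches overlapped in the windows shown.
Apoa1, chr9:46228380-46228679, plus strand: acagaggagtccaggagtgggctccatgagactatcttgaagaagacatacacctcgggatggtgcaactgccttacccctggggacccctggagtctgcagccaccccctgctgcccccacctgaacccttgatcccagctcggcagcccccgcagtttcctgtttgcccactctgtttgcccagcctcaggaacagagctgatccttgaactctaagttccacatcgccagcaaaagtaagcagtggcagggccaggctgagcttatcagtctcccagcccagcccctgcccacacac
Apoa4, chr9:46240594-46240893, plus strand: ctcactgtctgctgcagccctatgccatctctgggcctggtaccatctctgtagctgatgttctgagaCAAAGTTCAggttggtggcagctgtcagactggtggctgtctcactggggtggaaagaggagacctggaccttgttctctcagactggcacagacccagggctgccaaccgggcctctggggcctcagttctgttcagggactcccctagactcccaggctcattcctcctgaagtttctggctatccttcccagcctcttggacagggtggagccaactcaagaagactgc
Apoa5, chr9:46268383-46268682, plus strand: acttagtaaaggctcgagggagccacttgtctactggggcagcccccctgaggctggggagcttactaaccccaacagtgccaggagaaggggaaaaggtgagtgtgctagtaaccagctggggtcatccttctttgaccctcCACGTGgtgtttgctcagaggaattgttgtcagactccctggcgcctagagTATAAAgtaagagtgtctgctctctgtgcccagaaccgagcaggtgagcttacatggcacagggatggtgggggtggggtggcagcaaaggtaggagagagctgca
Apoe, chr7:19699139-19699438, minus strand: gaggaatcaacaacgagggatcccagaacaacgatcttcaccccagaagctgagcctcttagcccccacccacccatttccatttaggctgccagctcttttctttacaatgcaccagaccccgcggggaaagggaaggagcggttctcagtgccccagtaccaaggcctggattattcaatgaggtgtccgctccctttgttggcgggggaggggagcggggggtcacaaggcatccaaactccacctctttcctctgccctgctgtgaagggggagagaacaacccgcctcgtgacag
Of these 4 windows, that of *Apoa4* held the HNF4-type element, beginning at position -182 from the RefSeq start site. That of *Apoa5* held TATAAA at -56 and CACGTG at -107, and those of *Apoa1* and *Apoe* held none of the 4 motifs. Among 32817 promoter windows of the same length, 13.6% held TATAAA, 1.41% CAAAGTNCA, 16.3% AGGTCA and 7.15% CACGTG. The RefSeq start lay 148 bases downstream of the annotated gene start for *Apoa4* and 50 bases downstream of it for *Apoa1*. These 2 windows therefore reach further into the gene, and the *Apoa4* element lies nearer to the annotated start than its position tells. Of 3 RefSeq starts for *Apoe* and 2 for *Apoa5*, the one at the annotated gene start was used. A match describes letters only and shows no bound factor.

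In hepatocyte nuclei all 10 genes were detected, and their levels spanned more than an order of magnitude. A 3′ library holds 1 tag per captured molecule, so members were ranked by CPM without a correction for length. Intronic reads were not counted, and the part of gene length in this ranking was not tested. *Apob* led at 1999 CPM (1986 to 2012) and 1653 CPM (1637 to 1668). *Apoe* followed at 1467 and 1172 CPM, *Apoa2* at 1455 and 1050 CPM, and *Apoa1* at 1244 and 813.1 CPM. *Apoc1* stood at 589.3 and 458.5 CPM, *Apoa5* at 451.9 and 563.9 CPM, and *Apoc3* at 439.9 and 454.9 CPM. The 3 least abundant members were *Mttp* at 133.0 and 119.6 CPM, *Apoa4* at 114.6 and 192.9 CPM, and *Apoh*, which encodes the phospholipid-binding beta-2 glycoprotein, at 110.4 and 86.6 CPM. In the library labelled Flox the neighbours *Apoe* and *Apoa2*, *Apoa5* and *Apoc3*, and *Apoa4* and *Apoh* had overlapping intervals. In that labelled HKO only *Apoc1* and *Apoc3*, next to each other in rank, did so. The 2 orders differed in that *Apoa5* passed *Apoc1* and *Apoa4* passed *Mttp*.

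**Figure D1:**
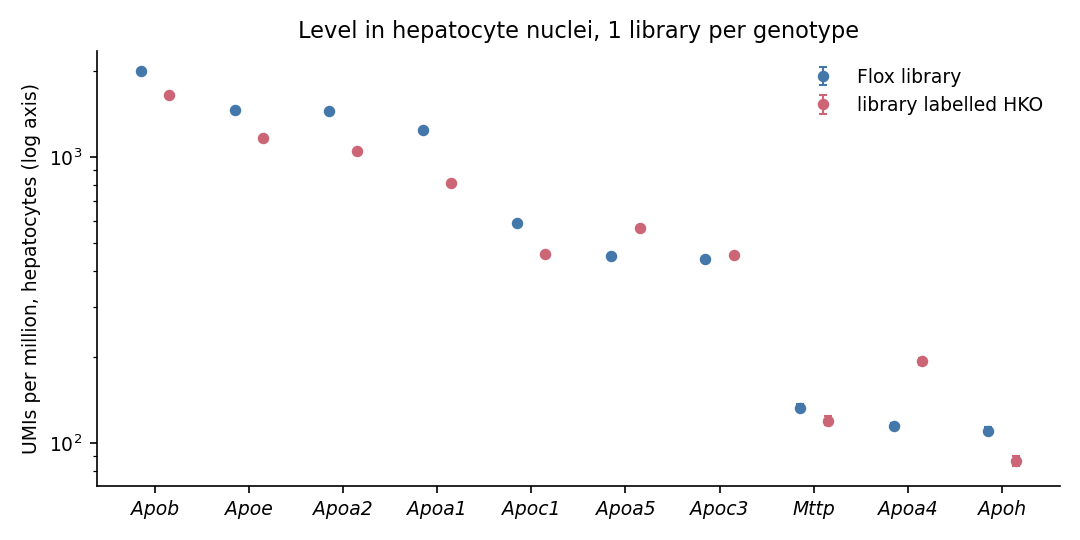
CPM in hepatocyte nuclei (log axis) for each of the 10 genes in the Flox library and the library labelled HKO, with exact 95% Poisson intervals, most of them smaller than the points. *Apoa4*, *Apoa5* and *Apoc3* stand higher in the library labelled HKO, and the other 7 stand lower.

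Nuclei that should not make these proteins still carried their RNA, and the amount differed between members. In T cells *Apoa2* reached 931.4 and 777.0 CPM, which was 64.0% (53.6 to 75.8) and 74.0% (60.6 to 89.6) of its hepatocyte level. *Apoe* reached 61.6% and 57.6% of its hepatocyte level there, *Apoc1* 59.0% and 49.6%, *Apoa1* 43.6% and 38.8%, and *Apoc3* 39.5% and 48.3%. *Apob* stood at 13.9% (9.94 to 18.9) and 17.7% (12.7 to 24.2), and *Apoa5* at 7.69% and 9.10%. *Mttp* had a single UMI in the T cells of each library. For *Apoa4* and *Apoh* the shares were 24.3% and 49.4%, and 69.3% and 50.8%, resting on 4 and 13 and on 11 and 6 UMIs. The median over the 10 members was 41.5% and 48.9%, with 4 and 3 members at or above 50%, against 64.0% and 62.3% of all 11192 genes counted in hepatocytes. After thinning each nucleus to 1000 UMIs the member medians were 36.3% and 29.6%. The 7 hepatocyte markers summed gave 3.99% and 5.82% in the same T cells, although these markers served to name the nuclei. Among 12 other secreted hepatocyte proteins the median was 30.9% and 24.97%, led by *Alb* at 74.8% in the library labelled Flox and by *Ttr* at 40.8% in that labelled HKO.

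Endothelial nuclei held more UMIs in sum than T cells and gave narrower intervals. Their shares of the hepatocyte level ran from 8.45% and 8.39% for *Apoa5*, over 12.8% and 15.2% for *Apob* and 29.8% and 31.7% for *Apoa1*, to 49.9% and 64.0% for *Apoa2*. *Mttp*, now with 19 and 26 UMIs, stood at 12.7% (7.63 to 19.8) and 17.1% (11.2 to 25.2). *Apoe* was highest, at 93.3% and 103.5%. Members with longer mRNAs tended to lower shares in T cells, as shown by *Apob* with 13934 bases against *Apoa2* with 518. Spearman's rho between T cell share and mRNA length over the 10 members was -0.72 and -0.68, as a description of points that share their nuclei and depth. The part of mRNA length in this order was not tested.

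**Figure D2:**
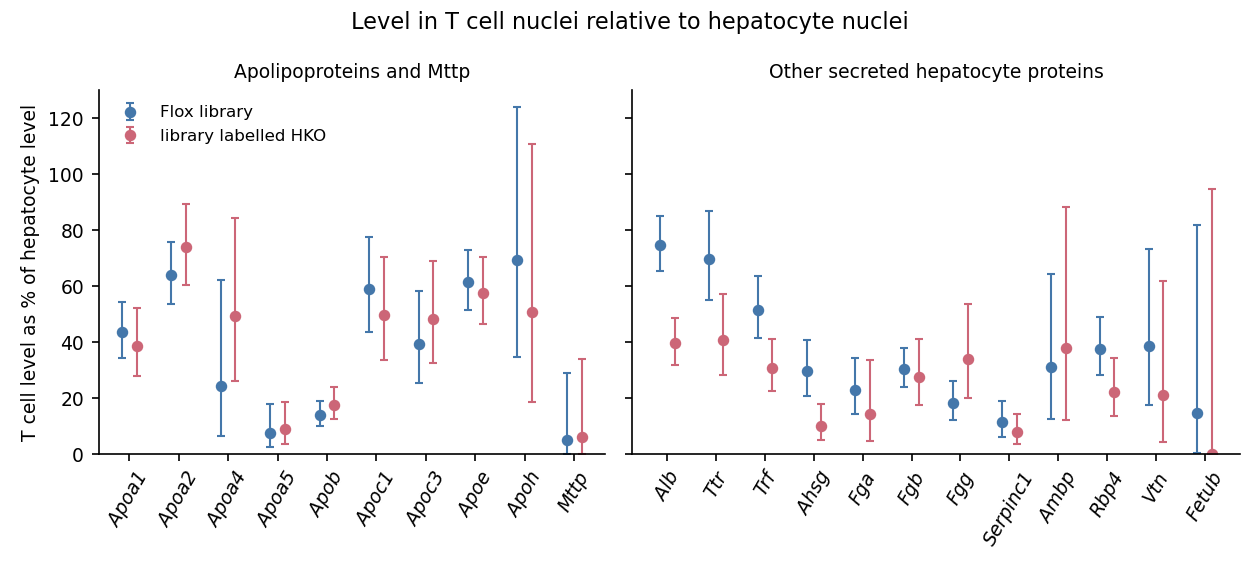
Level in T cell nuclei as a percentage of the level in hepatocyte nuclei, for the 10 members (left) and 12 other secreted hepatocyte proteins (right), with exact 95% conditional intervals. *Apoa5*, *Apob* and *Mttp* lie under 20% in both libraries, and *Apoa2* lies above 60% in both.

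*Apoe* was the member whose highest level lay outside hepatocytes in both libraries, whereas *Apoh* was highest in B cells in 1 library, on 9 UMIs. Macrophages held 3504 CPM (4503 UMIs) and 3403 CPM (6660 UMIs), which was 2.39 and 2.90 times the hepatocyte level. They exceeded T cells 3.88-fold (3.26 to 4.65) and 5.05-fold (4.11 to 6.27). Cholangiocytes stood at 2231 and 1348 CPM, endothelial nuclei at 1369 and 1213 CPM, stellate cells at 1109 and 787.8 CPM, B cells at 1002 and 1225 CPM, and T cells at 903.6 and 674.4 CPM. In the library labelled Flox the interval of B cells overlapped those of endothelial, stellate and T cells, and stellate and T cells overlapped as well. The ratio of stellate to T cells there was 1.23 (1.03 to 1.48), an interval above 1. In the library labelled HKO cholangiocytes, B cells and endothelial nuclei overlapped, as did endothelial nuclei and hepatocytes, B cells and hepatocytes, and stellate and T cells. The ratio of cholangiocytes to endothelial nuclei in that library was 1.11 (1.03 to 1.20), an interval above 1. To gauge hepatocyte RNA outside hepatocytes, *Apoe* was set against the 12 other secreted proteins in the same nuclei. Per UMI of these proteins, macrophages held 7.18 (5.90 to 8.79) and 6.20 (4.85 to 7.98) times as much *Apoe* as T cells did. The same ratio was 2.15 and 1.57 in stellate cells and 2.00 and 1.65 in endothelial nuclei, with intervals above 1 in both libraries. In cholangiocytes it was 1.87 (1.51 to 2.33) and 1.21 (0.941 to 1.57), where the interval of the library labelled HKO reached below 1. Cholangiocytes held more of the 12 proteins than T cells did, which lowers this ratio. Their median share of the hepatocyte level was 66.7% and 37.8%, against 30.9% and 24.97% in T cells, and was highest for *Ambp* at 225.4% and 178.3%. The ratio therefore cannot gauge hepatocyte RNA in cholangiocytes. By CPM, cholangiocytes held 2.47 and 2.00 times as much *Apoe* as T cells. After each nucleus was thinned to 1000 UMIs, 83.9% and 85.2% of macrophages and 54.7% and 41.7% of T cells held an *Apoe* UMI. Without thinning these shares were 93.4% and 90.6% of macrophages and 56.2% and 41.5% of T cells, at median depths of 2106 and 1405 UMIs and of 1102 and 746.5 UMIs. Thinning left out 18 and 209 macrophages and 46 and 128 T cells that were shallower.

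*Apoc1*, the neighbour of *Apoe* and a small protein that hinders lipoprotein uptake, was the only other member that macrophages held in excess over T cells, per UMI of these secreted proteins, in both libraries. Macrophages held 409.3 and 329.6 CPM, below the 589.3 and 458.5 CPM of hepatocytes, and 1.18 (0.880 to 1.61) and 1.45 (1.01 to 2.15) times the CPM of T cells. Per UMI of the 12 secreted proteins, macrophages held 2.18 (1.61 to 3.01) and 1.78 (1.21 to 2.70) times as much as T cells. In macrophages *Apoc3*, *Apob*, *Apoa2*, *Apoa4*, *Apoa5*, *Apoh* and *Mttp* had intervals of this ratio that included 1 in both libraries, while that of *Apoa1* lay below 1 in the library labelled HKO at 0.671 (0.474 to 0.968).

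Macrophages split by marker UMIs into Kupffer-like (419 and 680) and lipid-associated (44 and 247) nuclei, and by CPM the 2 genes leaned in opposite ways. *Apoe* stood at 3218 and 3289 CPM in Kupffer-like and at 4919 and 3599 CPM in lipid-associated nuclei, a ratio of 1.53 (1.38 to 1.69) and 1.09 (1.03 to 1.16). Per UMI of the secreted proteins, Kupffer-like nuclei held 6.80 (5.58 to 8.34) and 6.33 (4.93 to 8.17) times as much *Apoe* as T cells. Lipid-associated nuclei held 11.4 (8.79 to 14.8) and 6.45 (4.96 to 8.42) times as much. By this measure *Apoe* leaned to lipid-associated nuclei only in the library labelled Flox, on 44 such nuclei. *Apoc1* stood at 452.8 and 386.7 CPM in Kupffer-like and at 233.2 and 248.7 CPM in lipid-associated nuclei, a ratio of 0.515 (0.320 to 0.790) and 0.643 (0.510 to 0.805). By the same measure *Apoc1* stood at 2.49 and 2.21 in Kupffer-like and at 1.40 and 1.32 in lipid-associated nuclei, with overlapping intervals. The lipid-associated value of *Apoc1* in the library labelled Flox rested on 22 UMIs. The 115 and 347 macrophages with neither marker set were left out of this split.

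**Figure D3:**
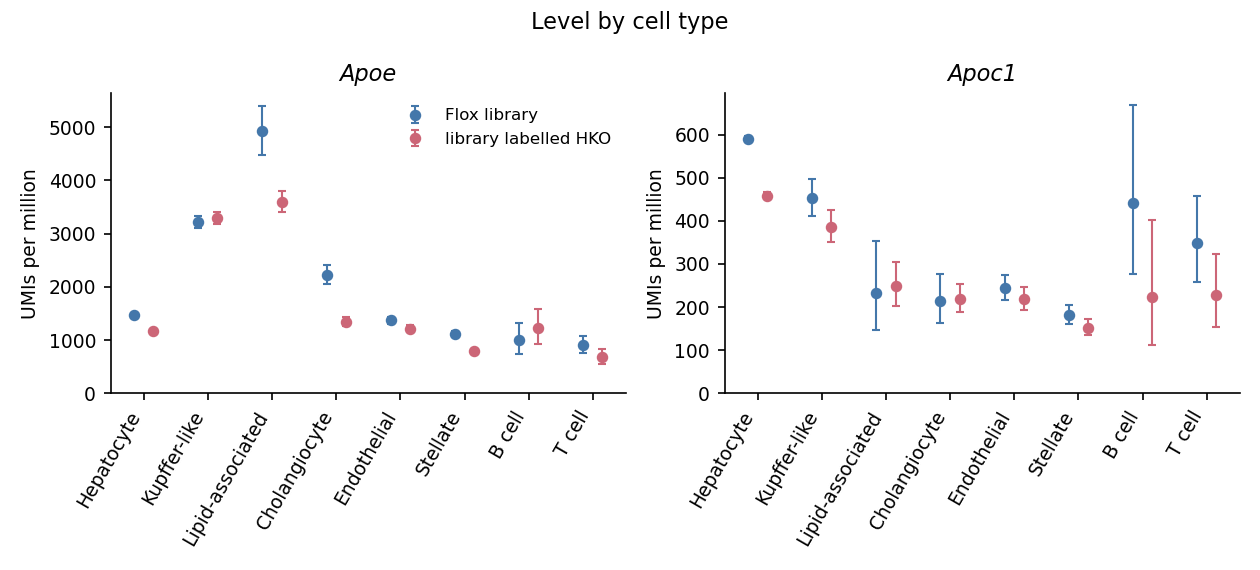
CPM of *Apoe* (left) and *Apoc1* (right) by cell type in both libraries, with exact 95% Poisson intervals and macrophages split into Kupffer-like and lipid-associated nuclei. *Apoe* is highest in both macrophage groups, and *Apoc1* is higher in Kupffer-like than in lipid-associated nuclei.

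Hepatocytes were placed along the lobule by the share of zone 3 (pericentral) among their zone marker UMIs, which gave 2125 and 1334 zone 1 (periportal) nuclei and 3182 and 2228 zone 3 nuclei. Another 447 and 637 nuclei lay between, and 28 and 161 had too few marker UMIs. In the library labelled Flox *Apoa5* was 591.5 CPM in zone 1 and 360.7 CPM in zone 3, a zone 3 over zone 1 ratio of 0.610 (0.593 to 0.628). *Apoc3* followed at 0.664 (0.645 to 0.683), then *Apoa4* at 0.763, *Apoa1* at 0.788, *Apob* at 0.836 and *Apoh* at 0.854. *Apoe*, *Mttp* and *Apoa2* leaned to zone 3, at 1.15 (1.13 to 1.17), 1.14 (1.08 to 1.21) and 1.10 (1.08 to 1.12), and *Apoc1* was nearly even at 0.974. In this library 2 members passed 1.5-fold, both lower in zone 3, where 6.90% of all genes were lower and 6.79% higher by that much. *Apoc3* sat at the limit.

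In the library labelled HKO all 10 ratios stood further toward zone 3 when nuclei of every depth were used. *Apoa4* was 140.7 CPM in zone 1 and 219.2 CPM in zone 3, a ratio of 1.56 (1.46 to 1.67), and was the single member past 1.5-fold, where 5.66% of all genes were higher and 4.44% lower in zone 3. In the same library *Apoa1* was 764.3 CPM in zone 1 and 834.8 CPM in zone 3, a ratio of 1.09 (1.06 to 1.13). *Apoe* and *Mttp* both stood at 1.30, *Apoa2* at 1.21, *Apoc1* at 1.01, *Apob* at 0.943, *Apoh* at 0.942, *Apoc3* at 0.913 and *Apoa5* at 0.805. The ratio of the 2 zone ratios was 2.04 (1.87 to 2.23) for *Apoa4*, 1.39 (1.34 to 1.43) for *Apoa1*, 1.38 (1.31 to 1.44) for *Apoc3* and 1.32 (1.26 to 1.38) for *Apoa5*, the 4 members of the chromosome 9 cluster. For the other 6 it ran from 1.04 for *Apoc1* to 1.14 for *Mttp*, and the intervals of *Apoc1* and *Apoh* included 1. In hepatocytes of 2000 to 10000 UMIs the order of the libraries turned for *Apoh*, at log2 zone ratios of -0.16 and -0.21. *Apoc1* stood there at -0.045 in the library labelled HKO, below its Flox values of -0.040 to -0.0044 over all settings. *Apoa2* was nearly even between the libraries there, at 0.191 and 0.199. With nuclei of every depth, 56.6% of 11174 genes outside the zone markers also had a higher zone 3 over zone 1 ratio in the library labelled HKO. Among these genes *Apoa4* lay at the 99.4th percentile of the shift, *Apoa1* at the 94.4th, *Apoc3* at the 94.0th and *Apoa5* at the 92.0th.

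Zones were told apart less sharply for some genes in the library labelled HKO. The zone 3 enzyme *Cyp2e1*, itself a zone marker, had a zone 3 over zone 1 ratio of 17.1 in the library labelled Flox and 8.36 in the HKO-labelled one, while that of *Glul* was 44.1 and 54.4. Their part in the member values was not tested. After thinning to 1000 UMIs the log2 zone ratio of *Apoa4* was -0.39 (-0.62 to -0.17) and 0.44 (0.20 to 0.68), whereas that of *Apoa1* was -0.29 and 0.01, the latter with an interval from -0.10 to 0.11.

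**Figure D4:**
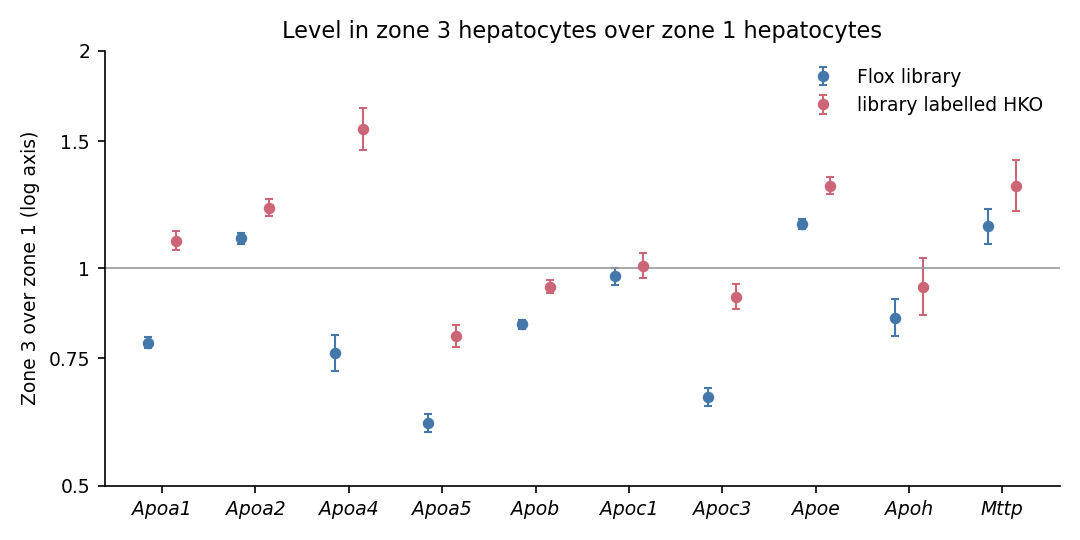
Ratio of zone 3 over zone 1 hepatocyte level (log axis) for each member and library, with exact 95% conditional intervals and a line at 1. *Apoa1* and *Apoa4* lie below 1 in the Flox library and above 1 in the library labelled HKO.

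The library difference in hepatocytes was then read for each gene as the log2 ratio of the library labelled HKO over that labelled Flox, with 1 CPM added. *Apoa1* was 1.53-fold lower (ratio 0.654, 0.644 to 0.664), and *Apoa4* was higher at a ratio of 1.68 (1.62 to 1.75). These 2 members passed 1.5-fold, 1 in each direction, where 6.28% of the 11192 genes were higher and 8.31% lower by that much. *Apoa5* stood at 1.25 (1.22 to 1.27) and *Apoc3* at 1.03 (1.01 to 1.06). *Apoa2* was lower at 0.721, *Apoc1* at 0.778, *Apoh* at 0.784, *Apoe* at 0.799, *Apob* at 0.827 and *Mttp* at 0.900. The median log2 ratio of the members was -0.30, beside -0.02 over all genes and -0.61 over the 12 other secreted proteins, of which 6 were lower by 1.5-fold. Among all genes *Apoa1* lay at the 7.47th percentile and *Apoa4* at the 96.2nd. After thinning to 1000 UMIs *Apoa1* stood at a log2 ratio of -0.57, just inside 1.5-fold, and *Apoa4* at 0.67.

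The zones differed in this comparison. *Apoa4* was 134.0 and 140.7 CPM in zone 1, with a ratio of 1.05 (0.978 to 1.13), and 102.2 and 219.2 CPM in zone 3, with a ratio of 2.14 (2.03 to 2.26). *Apoa1* was 1427 and 764.3 CPM in zone 1, a ratio of 0.536, and 1124 and 834.8 CPM in zone 3, a ratio of 0.742. *Apoc3* was lower in zone 1 at 554.1 and 486.6 CPM and higher in zone 3 at 367.9 and 444.5 CPM. *Apoa5* was 591.5 and 633.2 CPM in zone 1 and 360.7 and 509.6 CPM in zone 3. The 2 genes at the ends of the cluster thus differed in direction, *Apoa1* lower in both zones and *Apoa5* higher in both.

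**Figure D5:**
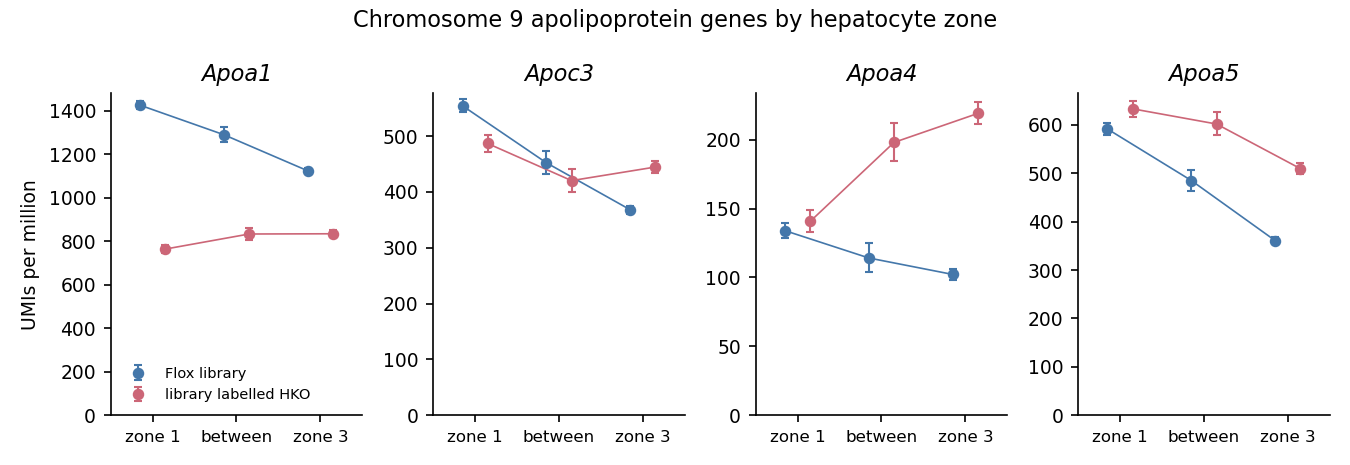
CPM of the 4 chromosome 9 members in hepatocytes of zone 1, between and zone 3, for both libraries, with exact 95% Poisson intervals and axes from 0. *Apoa4* has overlapping intervals in zone 1 and separate ones in zone 3, whereas *Apoa1* differs most in zone 1.

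The same 2 directions were found in the other cell types, where hepatocyte RNA was present at the lower levels given above. *Apoa1* was lower in the library labelled HKO in each of the 6 other cell types, at ratios from 0.414 in B cells to 0.697 in endothelial nuclei. The sum of the other secreted hepatocyte proteins was also lower in that library in each of these types. It was 4455 and 1928 CPM in T cells, 4268 and 2246 CPM in B cells, and 3376 and 2096 CPM in endothelial nuclei. The lower *Apoa1* in these types was thus not particular to this gene. *Apoa4* was higher in the library labelled HKO in endothelial nuclei at 2.38 (1.56 to 3.72), in stellate cells at 2.41, and in macrophages at 2.55. In T cells the ratio was 3.43 (1.06 to 14.4), and in cholangiocytes it was 1.55 with an interval from 0.914 to 2.79. In B cells *Apoa4* had 0 UMIs in the library labelled Flox, which allows up to 60.1 CPM at 3 counts, and 2 in that labelled HKO. After T cell CPM was subtracted from hepatocyte CPM, the log2 ratio of *Apoa4* was 0.17 and that of *Apoa1* -0.49, both inside 1.5-fold, that of *Apoa2* was -0.94, and that of *Apoh* turned to 0.32. The values of *Apoa4* and *Apoh* so corrected rest on the few T cell UMIs named above.

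Genes around the lipoprotein pathway were read from a list of 49, of which 46 had at least 200 UMIs in hepatocytes. Of these, 5 were higher and 8 lower by 1.5-fold in the library labelled HKO, beside 6.28% and 8.31% of all genes, and the median log2 ratio was -0.16. Among other apolipoproteins 3 of 6 were lower: *Apof*, which associates with low-density lipoprotein, stood at 169.8 and 81.1 CPM with a log2 ratio of -1.06, *Apon* stood at -0.91 and *Apom* at -0.61. *Apoc2*, the activator of lipoprotein lipase, stood at -0.22 and its neighbour *Apoc4* at 0.07, while *Apod* had no UMIs. In assembly and export 1 of 12 passed 1.5-fold, *P4hb*, the protein disulfide isomerase that pairs with MTTP, at -0.81. *Sar1b* followed at -0.42, and *Tm6sf2* and *Apobec1*, which edits *Apob* mRNA, led at 0.30 and 0.33.

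Among genes of plasma remodelling *Angptl8*, an inhibitor of lipoprotein lipase, stood at 70.9 and 158.3 CPM with a log2 ratio of 1.15, and *Lpl* stood at 1.32. *Lpl* held only 3.79 and 11.0 CPM in hepatocytes against 841.2 and 1412 CPM in macrophages. *Lmf1*, needed for lipase folding, stood at -0.67 and *Lipc*, the hepatic lipase, at -0.44. Of the uptake and efflux genes *Vldlr*, a receptor for triglyceride-rich particles, was higher at 4.64 and 24.95 CPM, with a log2 ratio of 2.20. *Lrp1*, a remnant receptor, was lower at 685.2 and 408.3 CPM, with a log2 ratio of -0.75, and *Abcg1* stood at -0.25. Among transcription regulators *Nr0b2*, a nuclear receptor that represses bile acid synthesis, was lower at -1.08, while *Foxo1* and *Nr1h3* stood at 0.30 and 0.09.

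Members also differed in how evenly they were spread over hepatocytes. After thinning to 1000 UMIs, counting error alone would give a variance over mean of 1. *Apoa4* reached 1.35 and 1.38, which lay at the 99.1st and 98.1st percentile of genes of like level, whose medians were 1.03 and 1.04. *Apoe* reached 2.00 and 2.21, beside medians of 1.26 and 1.19 for genes of like level, at the 92.1st and 93.1st percentile. *Apoa2* reached 1.59 and 2.42, beside medians of 1.25 and 1.16, at the 72.4th and 94.0th percentile. *Apob* stood at 1.42 and 1.36, close to the medians of 1.41 and 1.31 of its like, and *Mttp* at 1.03 and 1.01. *Apoa4* UMIs were found in 10.4% and 15.9% of thinned hepatocytes, against 0 of 75 T cells and 1 of 36. At 3 counts, a result of 0 among 75 nuclei of 1000 UMIs admits shares of nuclei with a UMI as high as 4%, for counting error only. Without thinning these shares were 43.1% and 50.3% of hepatocytes and 3.31% and 7.32% of T cells. *Apob* UMIs were found in 83.5% and 78.6% of thinned hepatocytes and in 99.7% and 99.1% of them before thinning, which left out 18 and 31 shallower hepatocytes.

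Levels of some members moved with the depth of a nucleus. Hepatocytes were split by UMIs into 3 groups of nearly equal size, and from the shallowest to the deepest, *Apoa2* went from 1785 to 1295 CPM in the library labelled Flox and from 1384 to 902.8 CPM in that labelled HKO. *Apoe* went from 1834 to 1299.6 CPM and from 1493 to 1010.1 CPM, and *Apoa1* from 1526 to 1107 CPM and from 1021 to 703.2 CPM. *Apoa4*, *Apoc1*, *Apoc3* and *Apoh* were also lower in the deepest than in the shallowest group of both libraries. From the shallowest to the deepest group, the share of zone 3 nuclei went from 50.3% to 61.5% and from 50.1% to 48.4%. *Apob* moved little, from 2053 to 1983 CPM and from 1778 to 1617 CPM, as did *Mttp*, from 139.5 to 130.4 CPM and from 112.1 to 120.3 CPM. The part of depth in the library ratios was not tested beyond the depth-matched alternatives in the closing section.

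Over 18 points (6 cell types and 3 hepatocyte zones in each library) the members were compared in pairs by likeness of log2 level, given as Pearson's r. The closest pairs were *Apoa5* and *Apob* (0.98), *Apoa5* and *Apoc3* (0.96), and *Apob* and *Apoc3* (0.93). *Apoe* had its lowest values with *Apoh* (-0.37), *Apoc3* (-0.26) and *Apoa2* (-0.24). Outside the members, *Apob* was most like *H2-Q10* (0.99), *Azgp1* (0.99) and *Cat* (0.98). *Apoa5* was most like *Tat*, *Tdo2* and *Hsd3b3*, each at 0.98, where *Tat* had served as a hepatocyte marker. *Apoa1* was most like *Rbp4* (0.98), *Fgg* (0.97) and *Arfgap2* (0.96). *Apoe* was most like *Atp6v0b* (0.88), *Stx16* (0.84) and *Grn* (0.83), and *Apoc1* most like *Tomm40* (0.94), which lies next to *Apoe* on chromosome 7. For *Apoc3* the nearest was *Nlrp6* (0.97), for *Apoa4* *Atl2* (0.96), for *Mttp* *Tmem205* (0.97), for *Apoa2* *Mrpl38* (0.94) and for *Apoh* *Alg11* (0.92). These points share libraries, and free RNA enters all of them.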

How the data were processed

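Nuclei of frozen liver were sequenced as 10x 3′ libraries, 1 per genotype, with several mice pooled. The authors deposited raw UMI counts per gene and barcode, made per the submitters' processing notes with Cell Ranger 8.0.1 on GRCm38, intronic reads excluded, with no normalization. Nuclei with at least 300 detected genes were kept, and doublets were removed with Scrublet in scanpy 1.11.5 at 0.8% per 1000 barcodes. A hepatocyte needed at least 3 hepatocyte marker UMIs and 2 per 1000 UMIs. Other types needed 3 marker UMIs from 2 genes and 3 times those of the next type. Zone 1 was a zone 3 share of marker UMIs up to 0.3 and zone 3 from 0.7. Macrophage states needed 2 marker UMIs and 2 times those of the other state.

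Markers were listed beforehand, but these limits were settled after seeing the data, and the members and lists were chosen with earlier results of these data known. UMIs were summed per library and type, and CPM is UMIs per 1000000 of that sum. Intervals at the 95% level are exact Poisson for CPM and exact conditional binomial for ratios, whereas the ratio of 2 zone ratios has a log-normal interval. They cover counting error only. Counts past 1.5-fold use genes with at least 200 UMIs over hepatocytes of both libraries. The text names all members, the 2 highest and 2 lowest genes of each pathway role, the 3 genes most like a member, and pathway genes past 1.5-fold where a role had few, the last chosen after their values were seen. Some genes of the pathway list are not reported here. Interval code was tested on simulated data. Alternatives included TMM factors (edgeR 4.0.16, R 4.3.3). Gene positions and mRNA lengths follow the GENCODE annotation of GRCm38.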

Additional observations from a re-analysis of the deposited data

Results flagged for a closer look

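The zone pattern of 2 members pointed in opposite directions in the 2 libraries. The zone 3 over zone 1 ratio of *Apoa4* was 0.763 in Flox and 1.56 in HKO-labelled nuclei. That of *Apoa1* was 0.788 and 1.09, but after thinning to 1000 UMIs its log2 ratio in HKO-labelled nuclei was 0.01, with an interval from -0.10 to 0.11 that includes 0. Each direction rests on 1 library, so the difference between the libraries was not tested. No group held enough samples to look for a sample standing apart.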

How the results depend on the processing

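No paired analysis was possible because each genotype had 1 library and no test was made. No alternative reversed a value that had passed 1.5-fold. The median log2 ratio of the members, -0.30, was -0.17 with T cell CPM subtracted, -0.32 in hepatocytes of 2000 to 10000 UMIs, and, in alternatives chosen after seeing the data, -0.38 in zone 1 and -0.23 in zone 3. The count of members past 1.5-fold between the libraries, 2, became 1 with T cell CPM subtracted (*Apoa2*), after thinning to 1000 UMIs (*Apoa4*), in zone 1 only (*Apoa1*) and in zone 3 only (*Apoa4*). Over all genes the 703 higher and 930 lower past 1.5-fold became 2275 and 2167 with T cell CPM subtracted, 316 and 376 with a pseudocount of 10 CPM, and 401 and 559 of the 6717 genes left after thinning. Past 1.5-fold between zones, the 2 members of the library labelled Flox became 1 with doublets kept, a pseudocount of 10 CPM, stricter markers, thinning, or totals without *Malat1* and mitochondrial genes, each time without *Apoc3*, and the 1 of that labelled HKO became 0 after thinning. The ratio of *Apoe* in macrophages to T cells, 3.88 and 5.05, was 2.56 and 2.81 to endothelial nuclei, and 7.69 in the library labelled HKO after thinning. The cause was not tested. The median T cell share of the members, 41.5% and 48.9%, ran from 32.3% with endothelial nuclei in place of T cells to 44.4% with clusters in the library labelled Flox, and from 29.6% after thinning to 49.4% with doublets kept in that labelled HKO. Depth limits the B and T cell values, and in T cells *Apoa4*, *Apoa5*, *Apoh* and *Mttp* had at most 13 UMIs in a library.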

Other observations

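Several genes of the lipoprotein pathway were most abundant outside hepatocytes. They were chosen after their values were seen and are given as levels with the library labelled Flox first. *Gpihbp1*, which anchors lipoprotein lipase to capillaries, stood at 516.5 and 403.7 CPM in endothelial nuclei and at 0.788 and 0.816 CPM in hepatocytes. Macrophages held *Lpl* at 841.2 and 1412 CPM, the phospholipid transfer protein gene *Pltp* at 309.7 and 224.8 CPM, and *Apobec1* at 357.2 and 705.2 CPM. They also held *Abca1*, which exports cholesterol to APOA1, at 580.5 and 826.3 CPM, *Abcg1* at 257.6 and 340.3 CPM, and the sterol receptor gene *Nr1h3* at 351.0 and 261.1 CPM. *Clu* (apolipoprotein J) stood at 4997 and 1958 CPM in cholangiocytes against 118.5 and 94.8 CPM in hepatocytes. *Nr1h4*, the bile acid receptor gene, was higher in stellate cells, at 313.7 and 252.5 CPM, than in hepatocytes, at 186.7 and 155.5 CPM. The libraries were not tested against each other for these genes.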
